A study of Rattus norvegicus with 6 samples.

Results

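The genes described here are 37 genes of DNA replication and S phase, taken by name from the deposited table of 26126 gene entries, and all 37 names were found in it. They were measured by RNA sequencing in H9c2, a rat cell line from embryonic heart, grown in high-glucose medium containing 10% fetal bovine serum. The control group is 3 libraries from cells given a control adenovirus, and the PERK group is 3 libraries from cells labelled as given an adenovirus for PERK (adPERK). PERK, encoded by Eif2ak3, is a kinase of the endoplasmic reticulum that phosphorylates eIF2 alpha during protein folding stress and slows general translation. Both groups went through simulated ischemia-reperfusion, with an acidic buffer (pH 6.2) and a chamber flushed for 30 min with 95% nitrogen and 5% carbon dioxide, then closed for 1.5 to 3.5 h. The comparison asks how expression after this injury differs between cells labelled as given the PERK virus and controls. That PERK was overexpressed rests on the labels. The counts for Eif2ak3, given below, show no clear rise, and their 95% interval excluded a 1.2-fold change. No library without the injury or without virus was analysed here, and the sources used here do not give the virus dose or the species of the PERK sequence.

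Before a cell copies its DNA, the origin recognition complex, Cdc6 and Cdt1 load the MCM helicase onto chromatin in G1. Cyclin E with CDK2 and the kinase DDK then start the helicase with the help of Cdc45, the GINS complex and Mcm10, and polymerases, the PCNA clamp and its loader follow at the fork. Most of these genes are transcribed by E2F factors as cells pass from G1 into S phase, so their RNA is a common readout of proliferation. H9c2 cells divide as myoblasts in serum and leave the cycle when they differentiate.

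The start regions of the genes show the E2F letters most plainly, and these are printed first because shared control letters are the one common feature that can be read without the expression values. RefSeq start regions (GRCr8, 250 bases before to 50 after the annotated start) matched 30 of the 37 genes. An E2F core, searched on both strands as TTTCCCGC, TTTGGCGC, TTTCGCGC, TTTGCCGC or TTCCCGCC, which can overlap one another, was found in 19 of the 30 genes (63.3%) and in 3.97% of all 27457 genes in the table. The 30 all had enough counts to be tested, while the 27457 include genes that did not. Among tested genes outside the 37, 678 held a core and 8946 did not. The CCAAT box was found in 20 of the 30 (66.7%) and in 39.6% of all genes. A match is a run of letters and not a measured binding site, and no match says only that these letters are not in this window.

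The next stretches hold an inverted pair of E2F cores that overlap, written TTTNGCGCNAAA with C or G at each N, a form picked out after the sequences had been seen. Capitals mark E2F cores and CCAAT boxes on either strand, and each stretch runs 5′ to 3′ along the gene and ends before the start site.
Mcm2, chr4:122918095-122918154, minus strand: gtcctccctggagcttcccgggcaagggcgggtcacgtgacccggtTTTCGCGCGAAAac
Gins1, chr3:160184860-160184919, plus strand: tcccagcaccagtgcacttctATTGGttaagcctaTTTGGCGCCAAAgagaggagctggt
Mcm6, chr13:42404463-42404522, minus strand: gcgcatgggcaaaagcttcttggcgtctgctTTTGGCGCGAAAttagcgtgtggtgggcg
Mcm5, chr19:13488573-13488632, plus strand: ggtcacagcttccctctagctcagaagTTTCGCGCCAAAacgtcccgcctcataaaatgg
Of the 27457 genes, 5 held this pair. Mcm2, Mcm5, Mcm6 and Gins1 are 4 of the 5, and the fifth is Topbp1, which encodes a protein that helps to start the helicase. The pair begins 14 bases before the start in Mcm2, 25 in Gins1, 139 in Mcm6 and 213 in Mcm5.

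Pola1 and Ccne1 are shown as well, because they had the smallest p-values among genes with a start region in the table. The stretch of Pola1 holds 1 E2F core and a CCAAT box, both on the other strand. The start region of Ccne1 holds none of the letters searched.
Pola1, chrX:62342406-62342555, minus strand: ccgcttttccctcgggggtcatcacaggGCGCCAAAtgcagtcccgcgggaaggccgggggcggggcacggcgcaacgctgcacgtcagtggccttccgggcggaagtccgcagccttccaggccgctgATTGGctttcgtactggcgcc
Ccne1, chr1:99927960-99928109, minus strand: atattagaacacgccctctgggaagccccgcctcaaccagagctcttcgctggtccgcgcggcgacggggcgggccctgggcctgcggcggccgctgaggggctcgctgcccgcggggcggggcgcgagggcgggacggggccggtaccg

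None of the 37 genes passed the test between the adPERK-labelled and control libraries (edgeR quasi-likelihood test, Benjamini-Hochberg adjusted p from 0.128 to 0.9995). Among all 14488 tested entries, 0.421% passed at an adjusted p under 0.05, with 0.311% higher and 0.11% lower. All 37 genes passed the filter on low counts, with 641 to 45693 counts per gene and library. The log2 fold change, PERK minus control, was below 0 for 33 of the 37, against 51.3% of all tested entries. Its median was -0.09, against -0.0045 for all tested entries. At an unadjusted p under 0.05, 12 genes were lower and 1 was higher, while 5.29% of all entries were lower and 5.94% higher at that level. The values of the 3 adPERK-labelled libraries lay below all 3 controls for 14 genes and above them for 1. The matching shares of all entries were 8.55% below and 9.66% above. Some of the gaps were very small, as given below for Rfc4, Orc6 and Chaf1b. The 37 genes were measured in the same 6 libraries and are often transcribed together, so they are not independent observations.

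DESeq2, run on the same counts as an alternative, called 3 of the 37 genes, Ccne1, Pola1 and Tk1, all lower. It called 2.24% of its 15911 entries in either direction and 0.823% lower. Of the 37 genes, 0 in the authors' deposited table had an adjusted p under 0.05, against 2.27% of the entries with an adjusted p there. At an unadjusted p under 0.05 the authors' deposited table held 2 of the 37, against 7.21% of its 26092 entries with a p. The smallest adjusted p among the 37 in the authors' deposited table was 0.274, for Gins2.

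The sizes were small and the edgeR intervals narrow. Standard errors of the log2 fold changes ran from 0.03 to 0.15 with edgeR. In the authors' deposited table they were larger, from 0.06 to 0.31, and intervals from those errors were not computed. Taken one gene at a time, the edgeR 95% intervals excluded a 1.5-fold change in either direction for all 37 genes. They excluded a 1.2-fold change for 22 of them. Of all 14488 tested entries, which include entries with far fewer counts, 10203 excluded a 1.5-fold change and 5510 a 1.2-fold change. These intervals measure the spread between libraries, which may be technical, since nothing in the labels says that replicates came from separate cultures.

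**Figure D1:**
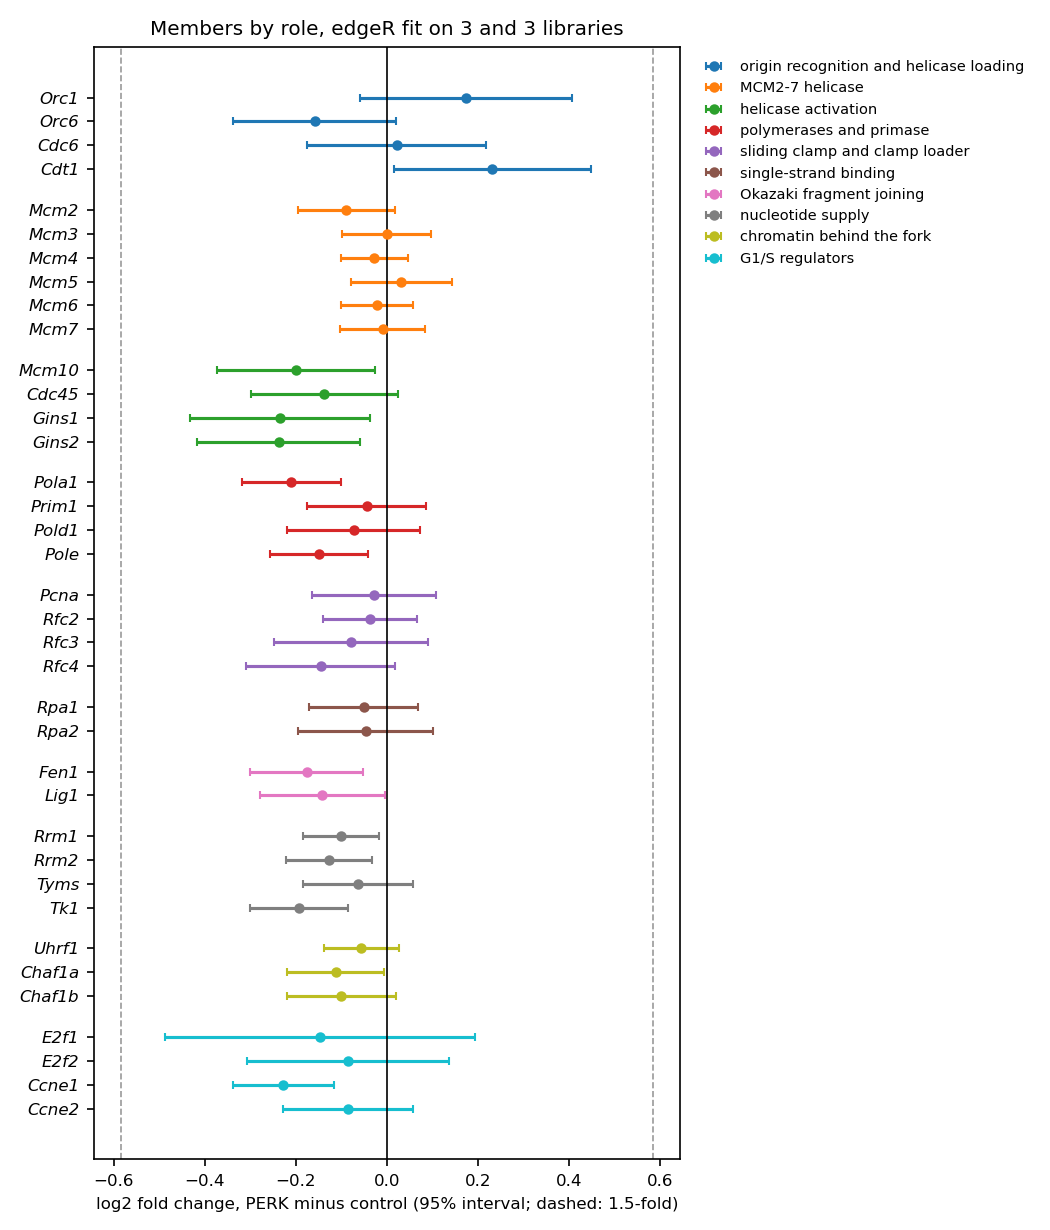
Log2 fold change, PERK minus control, with its edgeR 95% interval for each of the 37 genes, grouped and coloured by role. Dashed lines mark a 1.5-fold change. The 6 genes of the MCM helicase lie near 0, the 4 genes of helicase activation all lie below it, and every interval stays within the dashed lines.

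Eif2ak3, the gene to be overexpressed, did not pass the test (log2 fold change 0.03, SE 0.06, edgeR adjusted p = 0.887). Its edgeR 95% interval, -0.10 to 0.16, excluded a 1.2-fold change in either direction. The counts of Eif2ak3 thus show no rise of that size, and the labels have no check from them. In CPM, counts scaled to each library's TMM-adjusted total, its controls read 26.4, 26.9 and 24.0 and its adPERK-labelled libraries 26.5, 26.5 and 26.0, in the order of replicates 1 to 3 that is kept below. Total counts per library ranged from 77923398 to 119087414. Control replicate 3 stood apart, with 19287 entries above 0 against 15377 to 16685 in the other 5 libraries, and without it the median of the 37 log2 fold changes was -0.09 and 33 were below 0. All 10 striated muscle markers of H9c2 cells were tested. Their summed level was 1076 to 1168 CPM in control and 1049 to 1104 CPM in adPERK-labelled libraries, and 5 of the 10 log2 fold changes were above 0, with a median of -0.0021. Myog, the myogenic factor myogenin, was the 1 that passed, lower at -0.28 (SE 0.03, edgeR adjusted p = 0.0137). The other 9 markers summed to 602 to 675 CPM in control and 641 to 703 CPM in adPERK-labelled libraries. Of these, Mef2c, another muscle factor, was at 17.8, 17.4 and 18.5 CPM in control and 21.5, 20.8 and 30.0 CPM in adPERK-labelled libraries, with groups apart (0.43, SE 0.13, edgeR adjusted p = 0.268), as were those of Tnnt1, a troponin gene, at 0.10. Fibroblast markers summed to 25272 to 26627 CPM in control and 26702 to 27780 CPM in adPERK-labelled libraries, and epithelial markers to 48.7 to 52.9 CPM and 53.2 to 54.3 CPM. For endothelium the sums were 1.36 to 2.14 and 0.638 to 1.33 CPM and for leukocytes 8.54 to 12.4 and 9.98 to 11.0 CPM, with Lyz2 at 0 in every library. Of the listed markers, the test covered 1 of 7 endothelial, 3 of 9 leukocyte, 3 of 7 epithelial and 6 of 7 fibroblast ones, and none passed. Col3a1 and Col1a1 carry the fibroblast sum, Krt8 and Krt7 the epithelial one and Cd14 that of leukocytes. Of the 6 fibroblast markers tested, 3 had log2 fold changes below 0, among them Lum at -0.34 with groups apart. Col3a1 at 0.06 had groups apart in the other direction, as did Krt8 at 0.07. Tek, the endothelial marker tested, was lower with groups apart (-0.82) but had only 63 to 173 counts per library. The part of these shifts in the results below was not tested.

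Summed over the 37 genes, control libraries reached 2761, 2681 and 2673 CPM and adPERK-labelled ones 2574, 2596 and 2522 CPM. The groups did not overlap, and their means were 2705 ± 48.6 and 2564 ± 37.6 CPM (SD, n = 3). The sum is carried by the genes with the most counts, Rrm1 above all. The difference in the sum was not tested. Even if it were real, fewer cells in S phase and less RNA per cell cannot be told apart in this bulk RNA.

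PERK replicate 3 held the lowest value of the 6 libraries for 20 of the 37 genes, and control replicate 1 the highest value for 18. The median log2 ratio of the 37 genes to the control mean was -0.09, -0.07 and -0.12 in the adPERK-labelled libraries and 0.02, -0.0095 and -0.0079 in the controls. Without PERK replicate 3 the median log2 fold change of the genes was -0.07, and without control replicate 1 it was -0.07.

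**Figure D2:**
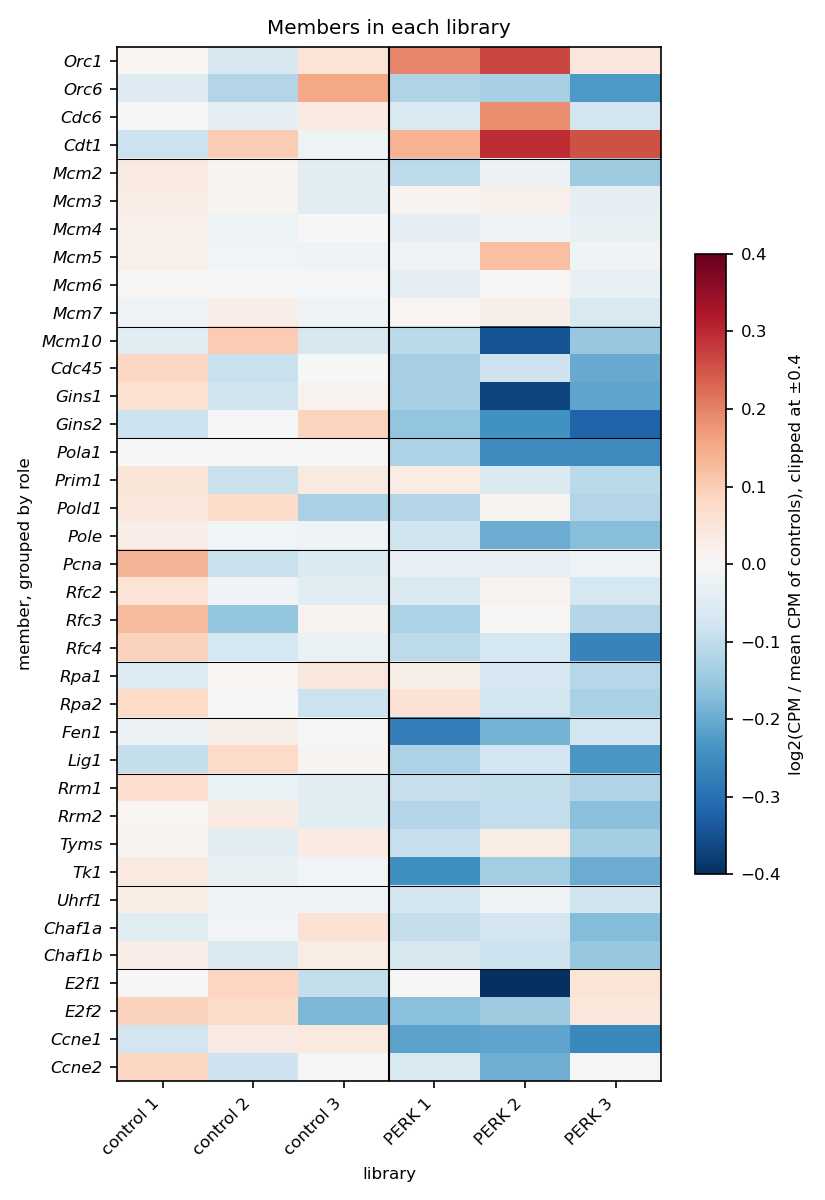
Log2 ratio of each gene's CPM in each library to its mean in the 3 controls, in rows grouped by role, with blue lower and red higher and colours clipped at 0.4. Cdt1 is red in all 3 adPERK-labelled libraries, most other rows are blue there, and E2f1 is dark blue in PERK replicate 2.

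Genes that recognise origins and load the helicase went in both directions, with 3 of 4 above 0 and none past the test. Cdt1, which brings the MCM helicase to origins, was at 9.58, 10.9 and 10.0 CPM in control and 11.2, 12.5 and 12.1 CPM in adPERK-labelled libraries. It is the 1 gene of the 37 whose adPERK-labelled values all lay above the controls (log2 fold change 0.23, SE 0.09, edgeR adjusted p = 0.404). Orc1, the largest subunit of the origin recognition complex and the gene with the fewest counts, was at 8.16, 7.76 and 8.42 CPM in control and 9.28, 9.77 and 8.37 CPM in adPERK-labelled libraries. Its groups overlapped through PERK replicate 3 (log2 fold change 0.17, SE 0.10, edgeR adjusted p = 0.568). Cdc6, the ATPase that loads the helicase together with Cdt1, had a log2 fold change of 0.02, which was -0.069 without PERK replicate 2. Orc6, the smallest subunit, had one of -0.16 (SE 0.08), which was -0.075 without control replicate 3. Its groups were only narrowly apart, with PERK replicate 1 at 23.11 CPM and control replicate 2 at 23.17 CPM.

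The 6 genes of the MCM helicase ring, which unwinds the DNA ahead of the fork, had log2 fold changes from -0.09 for Mcm2 to 0.03 for Mcm5. None of the 6 had groups apart. Mcm4, the ring gene with the most counts, was at 191, 186 and 188 CPM in control and 183, 186 and 184 CPM in adPERK-labelled libraries (log2 fold change -0.03, SE 0.03, edgeR adjusted p = 0.803). Mcm5 was at 122, 119.8 and 119.5 CPM in control and 119.5, 131 and 119 CPM in adPERK-labelled libraries, so its value above 0 rests on PERK replicate 2 and was -0.015 without it. Mcm3 (-1.5e-04), Mcm7 (-0.0092) and Mcm6 (-0.02) differed by less than their standard errors of 0.04, 0.04 and 0.03. For each ring gene the edgeR 95% interval excluded a 1.2-fold change. Their standard errors were larger in the authors' deposited table, at 0.10 for Mcm2 against 0.05 with edgeR.

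The 4 genes that turn the loaded ring into a working helicase all lay below 0, between -0.24 and -0.14. Gins2, a GINS subunit, was at 17.5, 18.4 and 19.7 CPM in control and 16.6, 15.7 and 14.8 CPM in adPERK-labelled libraries (log2 fold change -0.24, SE 0.08, edgeR adjusted p = 0.289). Gins1, another subunit, was at 17.2, 15.6 and 16.7 CPM in control and 15.0, 12.8 and 14.2 CPM in adPERK-labelled libraries (-0.23, SE 0.09, edgeR adjusted p = 0.36). Mcm10, a scaffold that binds the activated helicase, was at 26.4, 29.2 and 26.0 CPM in control and 25.2, 21.4 and 24.5 CPM in adPERK-labelled libraries (-0.20, SE 0.08, edgeR adjusted p = 0.371). In these 3 genes every adPERK-labelled value lay below every control, as in 8.55% of all entries. In Cdc45, the helicase partner of GINS, the groups overlapped (-0.14, SE 0.07). The summed level of the 4 genes was 82.0, 81.8 and 82.2 CPM in control and 74.9, 68.6 and 70.8 CPM in adPERK-labelled libraries, a mean 12.9% lower. That of the MCM ring was 805, 797 and 787 CPM against 779.6, 807 and 769 CPM, with overlap. Sums were also lower without overlap for Okazaki fragment joining (-10.4%) and G1 to S regulators (-10.3%). The same held for polymerases and primase (-7.86%), nucleotide supply (-7.73%) and chromatin genes (-4.70%). Groups overlapped for origin and loading genes (0.696%), the clamp and its loader (-3.32%) and single-strand binding (-3.38%). The differences between the roles were not tested. No matching share was computed for such sums, which come from the same libraries and are not independent of one another.

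Of the polymerase genes, Pola1 and Pole had groups that did not overlap. Pola1, the catalytic subunit of the polymerase that makes primers with primase, was at 57.9, 58.1 and 57.8 CPM in control and 53.0, 48.6 and 48.6 CPM in adPERK-labelled libraries. The coefficient of variation of the 3 controls was 0.244%, and the groups differed by -0.21 on the log2 scale (SE 0.05, edgeR adjusted p = 0.156). With DESeq2 its adjusted p was 0.0258, and over the 16 alternatives it ran from 0.0258 to 0.404. Pole, the leading-strand polymerase, was at 60.4, 58.9 and 58.6 CPM in control and 56.1, 51.6 and 52.7 CPM in adPERK-labelled libraries (-0.15, SE 0.05, edgeR adjusted p = 0.275). Pold1, the lagging-strand polymerase, and Prim1, the primase, had overlapping groups and log2 fold changes of -0.07 and -0.04.

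Pcna, the sliding clamp that holds polymerases on DNA, was at 175, 149.8 and 153 CPM in control and 156, 156 and 157 CPM in adPERK-labelled libraries. The 3 adPERK-labelled values were nearly equal and lay among the controls, where control replicate 1 stood highest (log2 fold change -0.03, SE 0.06, edgeR adjusted p = 0.898, and 0.044 without control replicate 1). The clamp loader genes Rfc2, Rfc3 and Rfc4 had log2 fold changes of -0.04, -0.08 and -0.15. The groups of Rfc4 were apart only by a hair, with PERK replicate 2 at 23.650 CPM and control replicate 2 at 23.654 CPM. Rfc3 was -0.011 without control replicate 1 and -0.15 without control replicate 2. Leaving out PERK replicate 3 gave -0.087 for Rfc4, and leaving out control replicate 1 gave -0.097. Rpa1 and Rpa2, which coat single-stranded DNA, were at -0.05 each. Fen1, the flap nuclease that trims Okazaki fragments, was at 42.4, 43.8 and 43.1 CPM in control and 35.6, 37.8 and 41.0 CPM in adPERK-labelled libraries. Its controls were close together and its adPERK-labelled values spread wider below them (-0.18, SE 0.05, edgeR adjusted p = 0.265). Lig1, the ligase that seals the fragments, was at -0.14 (SE 0.06) with overlapping groups.

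The 4 genes of nucleotide supply all had log2 fold changes below 0, and none passed the test. Tk1, the thymidine kinase of S phase, was at 86.8, 82.7 and 83.8 CPM in control and 71.3, 76.7 and 73.6 CPM in adPERK-labelled libraries (log2 fold change -0.19, SE 0.05, edgeR adjusted p = 0.17). Its adjusted p was 0.012 with DESeq2 and 0.012 to 0.364 over the 16 alternatives. Rrm2, the regulated subunit of ribonucleotide reductase, was at 136, 139 and 131 CPM in control and 125, 127 and 121 CPM in adPERK-labelled libraries (-0.13, SE 0.04, edgeR adjusted p = 0.28). Rrm1, its large subunit and the gene with the most counts, was at 413, 386 and 383 CPM in control and 369.9, 369 and 363 CPM in adPERK-labelled libraries (-0.10, SE 0.04, edgeR adjusted p = 0.345). In these 3 genes the adPERK-labelled values all lay below the controls, as in 8.55% of all entries. Tyms, which makes thymidylate, overlapped between groups (-0.06).

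Chromatin genes behind the fork were below 0 as well. Chaf1a, the large subunit of the histone chaperone CAF-1, was at 39.2, 40.3 and 42.2 CPM in control and 37.9, 38.5 and 36.0 CPM in adPERK-labelled libraries (-0.11, SE 0.05, edgeR adjusted p = 0.41). Chaf1b, its partner, was at -0.10 with groups narrowly apart, PERK replicate 1 at 24.29 CPM and control replicate 2 at 24.39 CPM. Uhrf1, which guides DNA methylation to new strands, was at 189.6, 183 and 184 CPM in control and 176, 184 and 176 CPM in adPERK-labelled libraries, and overlapped between groups through PERK replicate 2 (-0.06, SE 0.04, edgeR adjusted p = 0.604).

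Among regulators of the G1 to S step, Ccne1 had the smallest p of the 37 genes. Ccne1, which encodes cyclin E1, the partner of CDK2 at S phase entry, was at 66.5, 71.6 and 72.0 CPM in control and 60.4, 60.4 and 58.6 CPM in adPERK-labelled libraries (log2 fold change -0.23, SE 0.05, 95% interval -0.34 to -0.12, edgeR adjusted p = 0.128). Its adjusted p was 0.0048 with DESeq2 and 0.0048 to 0.32 over the 16 alternatives. Every adPERK-labelled value lay below every control. Ccne2, which encodes cyclin E2, was at -0.09 with overlapping groups. E2f1, an activating E2F factor, was at 33.8, 35.8 and 31.6 CPM in control and 33.7, 22.6 and 35.0 CPM in adPERK-labelled libraries. Only PERK replicate 2 was low, and the log2 fold change of -0.15 (SE 0.15) was 0.028 without it. E2f2, a second activating factor, was at -0.09 with overlapping groups.

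**Figure D3:**
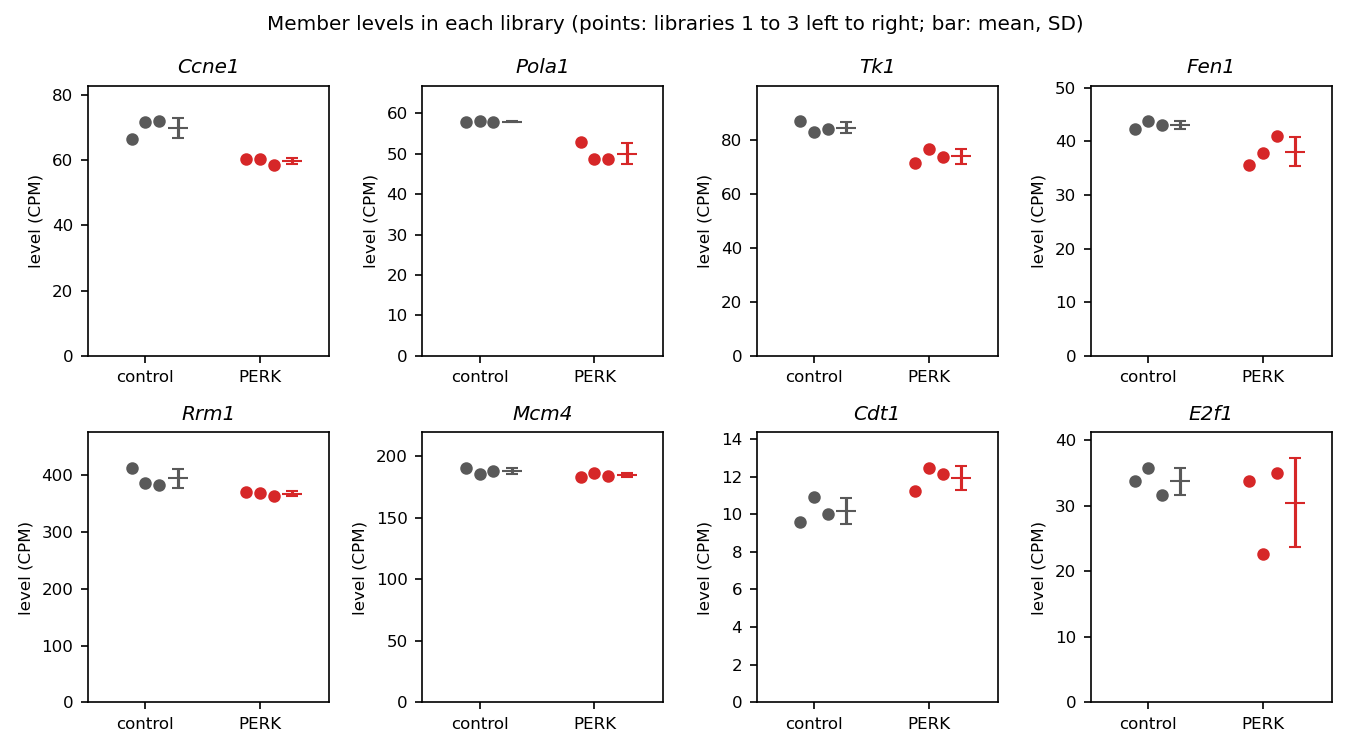
Level in CPM of 8 of the genes in each library, control in grey and adPERK-labelled in red, with the mean and SD of each group beside the points; every axis starts at 0. Ccne1, Pola1, Tk1, Fen1 and Rrm1 have all red points below the grey ones, Cdt1 has them above, and in E2f1 a single red point at 22.6 CPM lies apart.

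Genes of the pathway outside the 37 also had medians below 0 and no calls with edgeR. Their 2 lists, like the 37, were chosen with earlier results of these data known, so they are no independent support. Of 47 further genes of the replication machinery 46 were tested, and 0 passed with edgeR at an adjusted p under 0.05. At an unadjusted p under 0.05, 14 (30.4%) were lower and 0 higher, against 5.29% and 5.94% of all tested entries. DESeq2 called 2 of the 46, both lower, Asf1b and Brca1, against 0.823% of all its entries called lower. The median log2 fold change was -0.07 and 38 (82.6%) were below 0, against 51.3% of all tested entries. The smallest p belonged to Asf1b, a histone chaperone that hands histones to CAF-1. It was at 38.8, 38.9 and 39.5 CPM in control and 32.8, 32.8 and 34.0 CPM in adPERK-labelled libraries (-0.24, SE 0.04, edgeR adjusted p = 0.055), and it passed with a higher minimum count of 50 (0.0422), with the robust fit (0.0459), with counts divided by 6 (0.0467) and with DESeq2 (0.0145), while its largest adjusted p over the 16 alternatives was 0.225. Brca1, a repair gene that E2F factors also control, was at 37.9, 33.6 and 34.4 CPM in control and 30.3, 29.2 and 29.3 CPM in adPERK-labelled libraries, with groups apart (-0.25, SE 0.05, edgeR adjusted p = 0.131). Pola2, the partner subunit of Pola1, was at 35.7, 37.7 and 36.3 CPM in control and 32.7, 32.3 and 32.5 CPM in adPERK-labelled libraries (-0.17, SE 0.04, edgeR adjusted p = 0.17).

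Of 26 further genes of G1 to S control 25 were tested, with 0 past edgeR's adjusted p of 0.05 and a median of -0.07. At an unadjusted p under 0.05, 5 (20%) were lower and 1 (4%) higher, against 5.29% and 5.94% of all tested entries. DESeq2 called 3 of the 25, Cdkn1a and Skp2 lower and Ccnd1 higher, against 2.24% of all its entries called in either direction. Cdkn1a, the CDK inhibitor p21, was at 204, 220.02 and 212 CPM in control and 192, 186 and 182 CPM in adPERK-labelled libraries (-0.18, SE 0.04, edgeR adjusted p = 0.134), and it passed with the robust fit (0.0459) and DESeq2 (9.5e-04), with an adjusted p of up to 0.329 over the 16 alternatives. Skp2, which targets the inhibitor p27 for degradation, was at 23.7, 25.1 and 25.9 CPM in control and 21.1, 17.6 and 19.7 CPM in adPERK-labelled libraries (-0.35, SE 0.08, edgeR adjusted p = 0.135). Ccnd1, the G1 cyclin D1 induced by growth factors, was at 354, 378 and 358 CPM in control and 402, 405 and 402 CPM in adPERK-labelled libraries (0.15, SE 0.03, edgeR adjusted p = 0.15). In Cdkn1a and Skp2 the groups were apart with adPERK-labelled values lower, and in Ccnd1 with them higher.

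**Figure D4:**
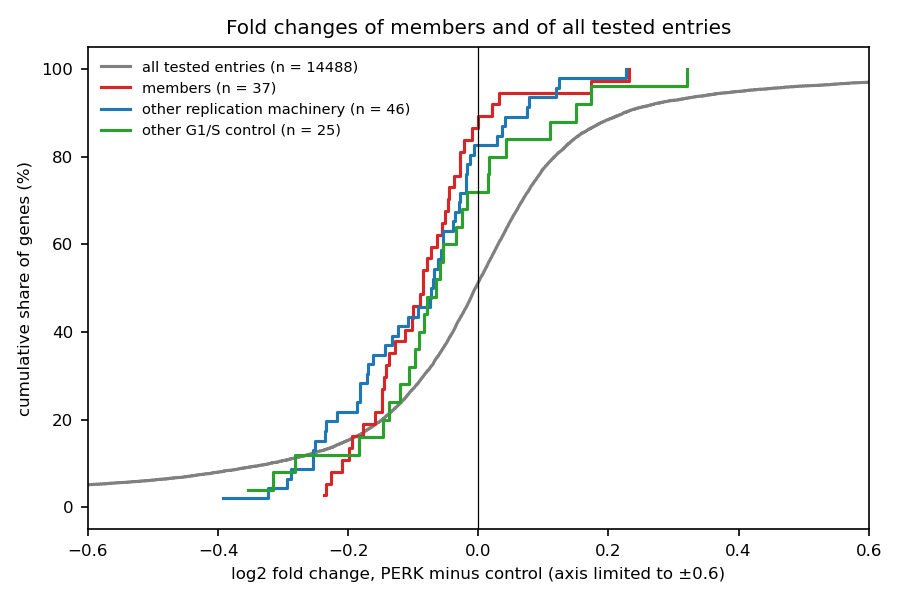
Cumulative share of genes against log2 fold change, PERK minus control, for the 37 genes, for both further lists of the pathway and for all 14488 tested entries. The curve of the 37 genes crosses 0 at 89.2% and that of all entries, which include the 37, at 51.3%.

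The 37 genes were also split by the E2F letters in their start regions. The 19 genes with a core had a median log2 fold change of -0.06, and the 11 with a start region but no core had -0.16. The 4 genes with the inverted pair ran from -0.23 for Gins1 through -0.09 for Mcm2 and -0.02 for Mcm6 to 0.03 for Mcm5. Among tested genes outside the 37, the 678 with a core had a median of -0.02 and 58.4% below 0, and the 8946 without one had a median of 1.4e-05 and 49.99% below 0. At an unadjusted p under 0.05, 8.55% of the 678 and 5.33% of the 8946 were lower. This split was added after the values had been seen and was not tested.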

How the data were processed

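Counts per gene in 6 libraries (3 control, 3 adPERK-labelled) were taken as the authors deposited them. Per the submitters' processing notes, Bowtie 0.12.2 and mm9, a mouse build, were used, yet gene names are those of rat. The counting program is not stated in the sources used here. The authors' normalized signal equals counts divided by 1 factor per library, per the file headers and values, and entered no test. The authors' deposited log2 fold changes, score and p-values are quoted only where named. Another table, whose 6 per-sample columns carry names found in no label, was left out. Low counts peak near multiples of 6: each library had 1.35 to 1.79 times as many entries at 12 or 13 counts as at 9 or 10. Independent fragments may therefore be fewer than counts.

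edgeR 4.0.16 (R 4.3.3) used TMM, filterByExpr (minimum count 10) and glmQLFit with glmQLFTest, with no covariate. Adjustment was over all 14488 tested entries at 0.05. Steps were tested on simulated data. Fits with DESeq2 1.42.0 and limma 3.58.1 voom, other scalings and filters, a robust fit and 1 library left out were alternatives.

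The genes and lists were chosen with earlier results of these data known. Shown library by library were the 12 smallest p-values, the 4 genes with most counts, the 3 furthest above 0 and the gene with fewest counts, and of other lists the 3 smallest p-values. Eif2ak3 was the targeted gene, and E2f1, Myog, Mef2c, Tnnt1, Lum, Col3a1, Krt8 and Tek were added after their values were seen. Protein comparisons were not run.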

Additional observations from a re-analysis of the deposited data

How the results depend on the processing

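Over 16 alternatives the median log2 fold change of the 37 genes stayed between -0.11 and -0.07, moving by less than the 0.0228 SD of that median over the adPERK-labelled libraries, and 31 to 34 genes were below 0. Each alternative called 0 of the 37 genes except DESeq2, which called 3. DESeq2 also called 2 genes of the further replication machinery and 3 of G1 to S control, and the robust fit called 1 and 1. The higher minimum count of 50 and the counts divided by 6 each called 1 gene of the further replication machinery. The 12 genes lower at an unadjusted p under 0.05 became 8 to 15.

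Entries changed over the whole table, 61 in the main analysis, were 357 with DESeq2, 110 with limma voom, 33 with total counts only, 94 without a low-count filter, 93 with counts divided by 6 and 132 with the robust fit. They were 12 to 38 with 1 library left out (38, 26 and 23 without control replicates 1 to 3 and 12, 21 and 14 without PERK replicates 1 to 3). The cause was not tested, except that such fits have fewer libraries.

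With a replicate block 9 entries changed and 0 of the 37, and the number did not pair the libraries (correlations of same-numbered deviations of -0.063, 0.011 and 0.029). In this fit 10 of the 37 genes were lower at an unadjusted p under 0.05.

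Of the 37 genes, 31 kept their sign in every alternative. Mcm3 was 0.0039 without the low-count filter. With 1 library left out Mcm3 ran from -0.020 to 0.018, Mcm7 from -0.027 to 0.018, Mcm5 from -0.015 to 0.056, Pcna from -0.073 to 0.044, E2f1 from -0.26 to 0.028 and Cdc6 from -0.069 to 0.069. With 1 library left out, 20 of the 37 log2 fold changes moved by over 1.5 times or changed sign.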
